A study of Mus musculus with 40 samples.

Results

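The genes described here are 10 apolipoprotein and lipoprotein assembly genes of the mouse: Apoa1, Apoa2, Apoa4, Apoa5, Apob, Apoc1, Apoc3, Apoe, Mttp and Lipc. They were chosen by name from 21938 protein-coding genes of the GENCODE annotation of mm10. The regions examined were each gene and the 50 kb on either side of it, which merged into 6 loci with 0.903 Mb in all. The data were 3 lists of chromatin immunoprecipitation sequencing (ChIP-seq) peaks, 1 each for the corepressors NCoR and SMRT and for the histone deacetylase HDAC3, in livers of ad libitum fed male C57BL/6 mice. The sample labels call these animals WT. They were Bcl6 fl/fl, a genotype in which loxP sites flank part of the Bcl6 gene, and carried no Cre. No source used here states their age. Each list stood for 3 libraries, 1 from each of 3 animals, that the authors had pooled to set peak positions. It therefore held no value per animal, no peak height and no peak score, and no test over samples could be made. The liver label could not be checked against marker genes, since positions carry no expression. The other 31 of 40 samples of the series were not analysed here. Of 35138 NCoR peaks, 63 had their centre in the member loci. Of 10654 SMRT peaks 22 did, and of 14462 HDAC3 peaks 29 did.

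Plasma lipids travel in particles whose protein coat is made of apolipoproteins, and the liver is the main source of both very low density lipoprotein (VLDL) and high density lipoprotein (HDL). Apob is the structural protein of VLDL, and Mttp, the microsomal triglyceride transfer protein, loads it with lipid in the endoplasmic reticulum. Apoa1 and Apoa2 are the chief proteins of HDL, the A and C apolipoproteins adjust how fast triglyceride is taken from the particles, Apoe is a ligand for uptake of remnants by receptors, and Lipc, hepatic lipase, cuts lipids of remnants and HDL. NCoR and SMRT are large corepressors that unliganded nuclear receptors and other repressors such as BCL6 recruit, and HDAC3 is the deacetylase that works in complex with them.

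The sequences under the NCoR peak closest to each transcription start site (TSS) are shown first. By the promoter window defined below, the peaks of Apoa1 and Apoe were not on a promoter. A sequence is given for the 9 members whose closest NCoR peak had its centre within 5 kb of a TSS. For Apoa4 the closest one lay 5284 bp upstream, at the promoter of the neighbouring Apoc3. Each was read from the GRCm38 (mm10) reference 5′ to 3′ on the strand of the gene, and untranslated exon bases were left out (29 for Apoa2, 18 for Apob, 7 for Apoc3, 74 for Mttp and 130 for Lipc). Capitals mark matches, on either strand, to any of 10 motif strings searched or to a nuclear receptor half-site, AAAGGTCA, that was added after the sequences had been seen. The runs are chr9:46225340-46225568 (plus strand) for Apoa1, chr1:171224854-171225053 (plus) for Apoa2, chr9:46268343-46268571 (plus) for Apoa5, chr12:7977437-7977647 (plus) for Apob, chr7:19693470-19693698 (minus) for Apoc1, chr9:46235300-46235521 (minus) for Apoc3, chr7:19700966-19701194 (minus) for Apoe, chr3:138131378-138131532 (minus) for Mttp and chr9:70934809-70934907 (minus) for Lipc. Peaks at Apoa2, Apoa5, Mttp, Lipc and Apoe were shared by all 3 cofactors, those at Apob and Apoc3 by NCoR and SMRT, and those at Apoa1 and Apoc1 were in the NCoR list alone.
Apoa2: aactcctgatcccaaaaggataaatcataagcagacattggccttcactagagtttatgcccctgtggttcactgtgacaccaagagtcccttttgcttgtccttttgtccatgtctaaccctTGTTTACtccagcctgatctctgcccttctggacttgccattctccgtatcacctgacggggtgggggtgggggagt
Apoa5: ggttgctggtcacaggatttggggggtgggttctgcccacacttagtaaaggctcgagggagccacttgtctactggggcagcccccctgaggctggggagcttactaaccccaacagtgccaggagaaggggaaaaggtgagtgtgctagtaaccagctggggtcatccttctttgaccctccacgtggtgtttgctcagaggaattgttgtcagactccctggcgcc
Mttp: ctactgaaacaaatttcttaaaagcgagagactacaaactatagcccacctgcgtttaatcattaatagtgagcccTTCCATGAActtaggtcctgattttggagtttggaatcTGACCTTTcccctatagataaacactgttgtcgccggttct
Lipc: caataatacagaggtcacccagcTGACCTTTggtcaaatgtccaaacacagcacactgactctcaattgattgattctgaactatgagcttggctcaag
Apoe: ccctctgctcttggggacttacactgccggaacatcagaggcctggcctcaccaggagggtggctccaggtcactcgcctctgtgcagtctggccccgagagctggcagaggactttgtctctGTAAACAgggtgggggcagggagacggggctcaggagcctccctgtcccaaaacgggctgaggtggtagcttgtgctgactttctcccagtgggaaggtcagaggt
Apob: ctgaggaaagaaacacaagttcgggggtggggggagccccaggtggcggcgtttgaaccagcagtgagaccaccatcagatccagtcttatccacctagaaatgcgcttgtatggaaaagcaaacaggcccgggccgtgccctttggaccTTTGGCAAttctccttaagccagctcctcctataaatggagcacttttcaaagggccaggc
Apoc3: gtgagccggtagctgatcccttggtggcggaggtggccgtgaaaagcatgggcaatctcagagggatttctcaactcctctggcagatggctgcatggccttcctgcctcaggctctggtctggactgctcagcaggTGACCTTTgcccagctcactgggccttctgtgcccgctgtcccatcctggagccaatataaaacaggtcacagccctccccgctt
Apoa1: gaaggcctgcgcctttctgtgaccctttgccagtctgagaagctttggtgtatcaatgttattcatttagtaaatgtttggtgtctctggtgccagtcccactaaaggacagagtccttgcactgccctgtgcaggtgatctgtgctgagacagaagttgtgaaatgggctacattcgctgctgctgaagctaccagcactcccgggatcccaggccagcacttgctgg
Apoc1: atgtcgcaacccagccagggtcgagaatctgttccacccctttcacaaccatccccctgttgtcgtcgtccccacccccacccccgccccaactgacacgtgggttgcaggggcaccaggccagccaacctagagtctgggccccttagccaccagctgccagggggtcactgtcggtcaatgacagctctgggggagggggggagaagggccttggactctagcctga

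All 10 members had peaks of NCoR, SMRT and HDAC3 within their regions, and all 10 had at least 1 shared site, that is an NCoR peak with both a SMRT and an HDAC3 peak centre at most 200 bp away. By the same rule 72.3% of all protein-coding genes had an NCoR peak and 39.2% had a shared site. No SMRT peak was found for 56.9% of all genes and no HDAC3 peak for 47.9%. Since 6 of the 10 members share 2 gene clusters, their regions overlap and the 10 genes are not independent cases. Of the 63 NCoR peaks, 18 were shared sites (28.6%, exact Clopper-Pearson 95% interval 17.9 to 41.3%), beside 24.9% of all NCoR peaks. A further 10 paired with HDAC3 alone and 2 with SMRT alone, and 33 were in the NCoR list alone (52.4%, 39.4 to 65.1%, beside 56.1% over all NCoR peaks). The class shares of the members' peaks were thus near those of the whole list, and the intervals, which cover counting error only, held the shares of all NCoR peaks. Of the SMRT peaks 18 of 22 were shared sites (81.8%, 59.7 to 94.8%) beside 81.9% over the SMRT list. Among HDAC3 peaks 19 of 29 were shared (65.5%, 45.7 to 82.1%) beside 60.4% over that list.

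**Figure D1:**
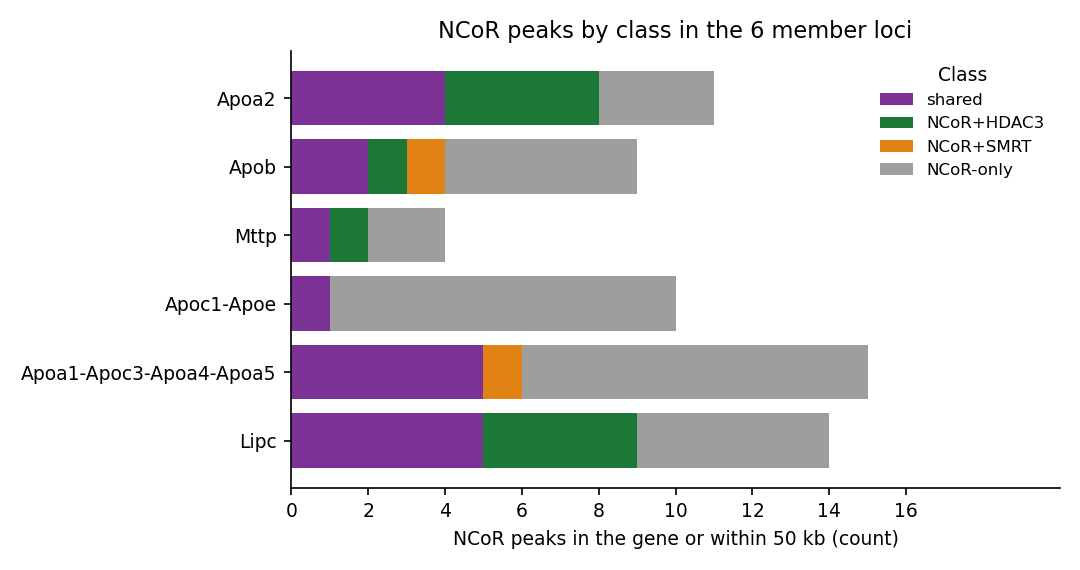
NCoR peaks (count) in each of the 6 member loci, with bar segments for the class given by SMRT and HDAC3 peaks within 200 bp. Apoa2 and Lipc hold 4 peaks each paired with HDAC3 alone, and 9 of the 10 peaks at Apoc1 and Apoe are NCoR-only.

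The loci differed in density. NCoR peaks numbered 10.9 per 100 kb at Apoa2, 10.5 at the Apoa1, Apoc3, Apoa4 and Apoa5 cluster, 9.12 at Apoc1 and Apoe, 6.47 at Apob, 5.51 at Lipc and 2.58 at Mttp. Over the union of the loci there were 69.8 NCoR, 24.4 SMRT and 32.1 HDAC3 peaks per Mb, which is 5.41, 6.23 and 6.05 times the genome-wide figures of 12.9, 3.91 and 5.31 per Mb. The genome-wide figures include stretches with few genes, whereas every base of the member loci lies in or near a gene.

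Apoa2, the second most abundant protein of HDL, had a shared site on its promoter. The NCoR peak chr1:171224854-171225082 had its centre 86 bp upstream of the TSS, with SMRT at 75 bp and HDAC3 at 98 bp upstream. A second NCoR peak lay 1017 bp upstream with an HDAC3 peak 17 bp from its centre, and the nearest SMRT peak to it was the promoter one, 942 bp off. This upstream peak fell just outside the promoter window, set as 1000 bp before to 100 bp after a TSS. The wider Apoa2 region held 11 NCoR, 4 SMRT and 8 HDAC3 peaks, and each of its 4 SMRT peaks was a shared site. The other 3 shared sites were assigned to neighbours: Nr1i3, which encodes the nuclear receptor CAR, at 925 bp upstream of its TSS, Pcp4l1 at 8199 bp upstream and Fcer1g, the common gamma chain of Fc receptors, at 1730 bp downstream. The Fcer1g site lay in an intron and 86.5% of its 200 bp window was marked as repeat, which no other member site reached.

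Apoa1, Apoc3, Apoa4 and Apoa5 sit side by side on chromosome 9, and their merged locus held 15 NCoR, 7 SMRT and 6 HDAC3 peaks. Apoa1, the main structural protein of HDL, had no peak of any cofactor on its promoter. Its closest NCoR peak, chr9:46225340-46225568, lay 3126 bp upstream and was NCoR-only, and the next, 4288 bp upstream, was NCoR-only too. The closest shared site upstream of Apoa1 was 12677 bp from its TSS, in an intron of Sik3, the gene that flanks the cluster (named here for its position, after the values were seen). In all, 7 NCoR peaks of the locus had the Apoa1 TSS as their nearest, of which 1 was shared and 6 were NCoR-only. The 1 HDAC3-only peak of all member loci also fell there, 21629 bp upstream of Apoa1 and 460 bp from the nearest NCoR centre.

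Apoc3, an inhibitor of lipoprotein lipase and of remnant uptake, had NCoR and SMRT on its promoter without HDAC3. The NCoR peak chr9:46235298-46235526 had its centre 113 bp and the SMRT peak 118 bp upstream of an inner start site of Apoc3, 5 bp apart. Both centres lay inside the gene, in an intron of its longer transcript. The nearest HDAC3 peak was 19493 bp from the NCoR centre. The NCoR peak was also the closest one to Apoa4, an apolipoprotein of chylomicrons and HDL, 5284 bp upstream of the Apoa4 TSS. No peak in any list had Apoa4 as the gene of its nearest TSS, and Apoa4, Apoa1 and Apoe were the 3 members with no NCoR peak on a promoter.

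Apoa5, which promotes the action of lipoprotein lipase on triglyceride-rich particles, held most of the shared sites of the cluster. Each of its 4 assigned NCoR peaks was a shared site, at 12261, 9362, 7281 and 176 bp upstream of the TSS. The promoter site, chr9:46268343-46268571, had HDAC3 2 bp and SMRT 98 bp from the NCoR centre, and that SMRT distance was the largest among the 18 shared sites of the members. Within this 1 cluster, 1 of 7 NCoR peaks assigned to Apoa1 and 4 of 4 assigned to Apoa5 were thus shared sites, a contrast that was not tested.

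**Figure D2:**
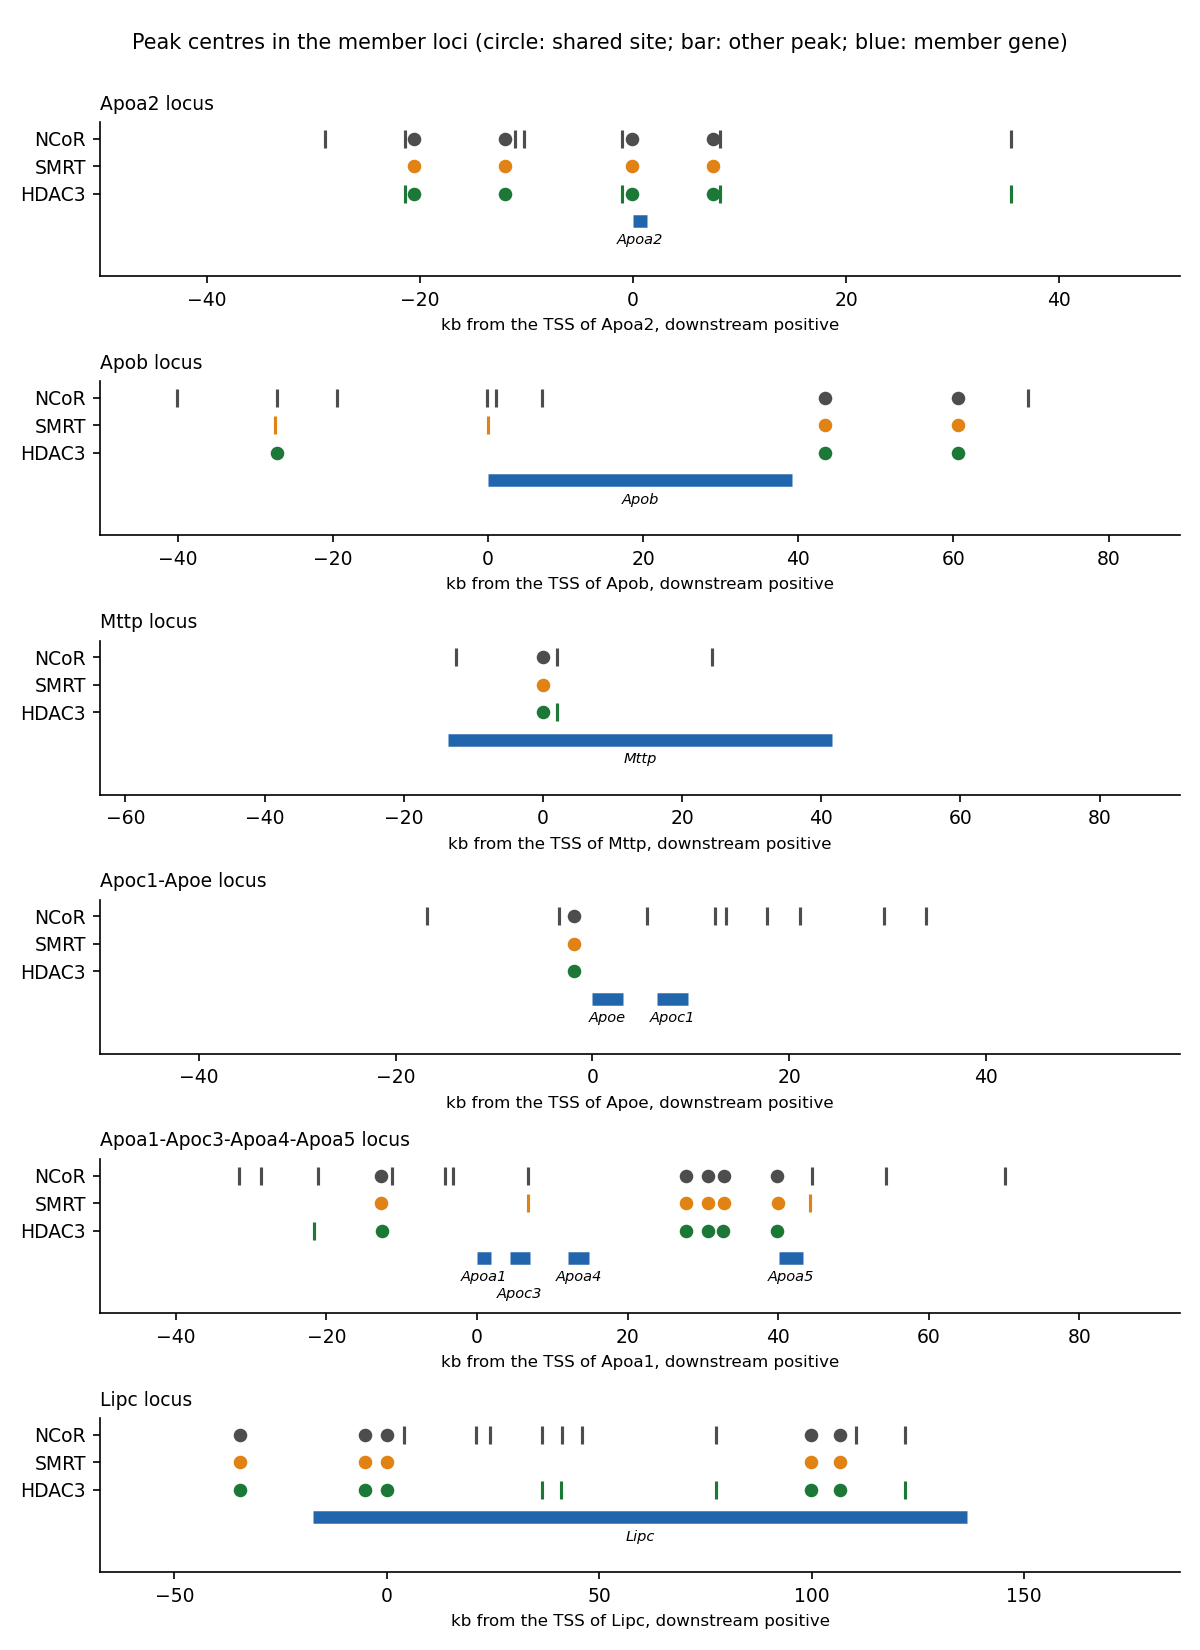
Centres of NCoR, SMRT and HDAC3 peaks in the 6 loci, in kb from the TSS of the gene named on each axis, with circles for peaks classed as shared in their own list, bars for other peaks and blue blocks for member genes. The chromosome 9 cluster shows the 4 shared sites upstream of Apoa5 and the promoter pair of NCoR and SMRT at Apoc3.

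Apob, the protein each VLDL particle is built on, had NCoR and SMRT on its promoter without HDAC3, as at Apoc3. The NCoR peak chr12:7977437-7977665 was centred 97 bp upstream of the TSS and the SMRT peak 41 bp upstream, 56 bp apart, and the nearest HDAC3 peak was 27176 bp from the NCoR centre. These 2 genes held the only NCoR peaks of the member loci that paired with SMRT alone. All 9 NCoR peaks of the Apob region had Apob as their nearest gene, and no other protein-coding TSS lay in the region. Both of its shared sites were beyond the 3′ end of the gene, 43466 and 60623 bp downstream of the TSS. Inside the gene there were 2 NCoR-only peaks, 979 and 6923 bp downstream of the TSS, both in introns. A further site, 27260 bp upstream, was sensitive to the distance rule: its SMRT peak was 209 bp from the NCoR centre but 196 bp from the HDAC3 centre. It was therefore counted as NCoR with HDAC3 in the NCoR list and as shared in the HDAC3 list, which accounts for 19 shared sites in one and 18 in the other.

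Mttp, the partner of Apob in VLDL assembly, had the fewest NCoR peaks of the members, 4, and all 4 lay inside the gene. A shared site, chr3:138131304-138131532, sat at the start site of the shorter of its 2 annotated transcripts. Its NCoR centre was 41 bp and its HDAC3 centre 23 bp upstream of that TSS, and its SMRT centre 1 bp downstream. A peak 2069 bp downstream paired with HDAC3 (17 bp), and one 24298 bp downstream was NCoR-only. The remaining NCoR-only peak lay within 1000 bp upstream of the second Mttp start site and 384 bp downstream of the TSS of Trmt10a, a transfer RNA methyltransferase gene on the opposite strand, so it was assigned to Trmt10a.

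Apoe and Apoc1 lie together on chromosome 7 with Apoc2 and Apoc4, and this locus was made up mostly of NCoR-only peaks. Of its 10 NCoR peaks 9 were NCoR-only, with 1 SMRT and 1 HDAC3 peak in the whole locus, both at the single shared site. That site, chr7:19700966-19701194, lay 1892 bp upstream of the Apoe TSS, with SMRT 21 bp and HDAC3 9 bp from the NCoR centre. A second NCoR peak assigned to Apoe, 3371 bp upstream in an intron of Tomm40, was NCoR-only. Apoc1, a small apolipoprotein carried on VLDL and HDL, had an NCoR-only peak 924 bp upstream of its TSS (chr7:19693470-19693698), near the outer edge of the promoter window. The other NCoR peaks of the locus were closest to Apoc4 (3 peaks), Apoc2 (2 peaks), the cofactor of lipoprotein lipase, Clptm1 (1 peak) and Tomm40 (1 peak), the channel of the outer mitochondrial membrane.

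Lipc had 14 NCoR, 5 SMRT and 9 HDAC3 peaks, 13 of the NCoR peaks inside the gene, which spans 154.1 kb including the part read from its longer annotated transcript. All 14 were assigned to Lipc, and no other protein-coding TSS was in the region. A shared site covered the main start site, chr9:70934679-70934907, with the NCoR, SMRT and HDAC3 centres 15, 14 and 37 bp downstream of the TSS. Inside the gene there were 3 more shared sites, chr9:70939737-70939965 at 5043 bp upstream of this TSS and chr9:70834788-70835016 and chr9:70827907-70828135 at 99906 and 106787 bp downstream, all in introns. The fifth was intergenic, 17167 bp upstream of the longer transcript's start. Another 4 NCoR peaks, at 36462, 41149, 77477 and 122057 bp downstream, paired with HDAC3 alone, and the last of these was the single NCoR peak of the members in a coding exon. Each of the 9 HDAC3 peaks at Lipc had an NCoR partner, and 5 of the 9 also had SMRT.

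At promoters, 7 of 10 members had an NCoR peak (Apoa2, Apoa5, Apob, Apoc1, Apoc3, Mttp and Lipc), beside 16.9% of all protein-coding genes. A shared site was on the promoter of 4 of 10 (Apoa2, Apoa5, Mttp and Lipc), beside 2.34% of all genes. SMRT was on 6 promoters, those 4 with Apob and Apoc3, and HDAC3 on the same 4 as the shared sites. The share of all genes is not given here for SMRT or HDAC3, so their counts have no background. All these promoter counts rest on the use of every annotated start site. When only the 5′ end of each gene was used as its TSS, NCoR was on 4 member promoters in place of 7 (13.2% of all genes). A shared site was then on 2 in place of 4, Apoa2 and Apoa5 (1.76% of all genes). The promoter peaks of Apoc3 and Lipc and the shared site of Mttp lie at inner start sites, and the Lipc peak is a shared site too. The other Mttp promoter peak, NCoR-only, lies upstream of the outer Mttp transcript start. That start is itself inside the 5′ end annotated for the gene. Of the 63 NCoR peaks 17 lay on a promoter of any gene (26.98%, 16.6 to 39.7%), beside 10.4% of all NCoR peaks. Of the SMRT peaks 8 of 22 did (36.4%, 17.2 to 59.3%), beside 6.12%. The choice of regions within 50 kb of a gene itself favours such shares, and 9 of the 17 NCoR peaks were on promoters of neighbours only. For HDAC3 the promoter count was 5 of 29 (17.2%, 5.85 to 35.8%), an interval that held the 8.0% of all HDAC3 peaks. Of the 10 peaks that paired with HDAC3 alone 0 were on a promoter (0 to 30.8%), an interval that held the 10.4% of all such NCoR peaks. The 17 promoter peaks split by whose promoter they were on. Of the 8 on member promoters 4 were shared (interval 15.7 to 84.3%), 2 paired with SMRT and 2 were NCoR-only. Of the 9 on promoters of neighbours 1, at Nr1i3, was shared (11.1%, 0.281 to 48.2%) and 8 were NCoR-only (88.9%, 51.8 to 99.7%). Over all 3659 promoter NCoR peaks 13.9% were shared and 68.5% were NCoR-only. For shared sites the neighbours' 11.1% was near the 13.9%, while for NCoR-only peaks their 88.9% was above the 68.5%. The neighbours' intervals held the shares of all promoter NCoR peaks in each of these classes. On member promoters, with 8 peaks, the interval for shared sites (15.7 to 84.3%) did not hold the 13.9%. That for NCoR-only peaks (25.0%, 3.19 to 65.1%) did not hold the 68.5%. The intervals of member and neighbour promoters overlapped for shared sites, and the split was noticed after the values were seen.

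**Figure D3:**
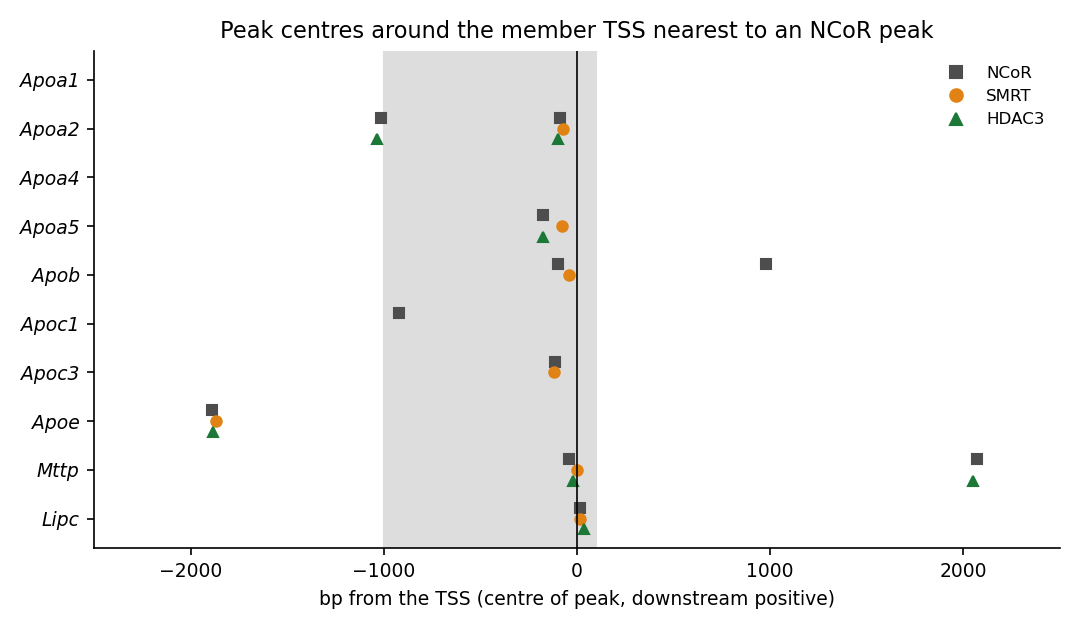
Peak centres (bp from the TSS, downstream positive) of NCoR (squares), SMRT (circles) and HDAC3 (triangles) around the TSS of each member that is closest to an NCoR peak, with the promoter window in grey. Apoa2, Apoa5, Mttp and Lipc have all 3 cofactors in the window, Apob and Apoc3 lack HDAC3 there, Apoc1 has NCoR alone, and Apoa1, Apoa4 and Apoe have no peak in the window.

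Set among all protein-coding genes, most members had many peaks in their regions. NCoR peaks per member ran from 4 at Mttp to 14 at Apoa4, Apoc3 and Lipc, with a median of 10.5, and the median over all genes was 2 with a 90th percentile of 9. Shared sites per member ran from 1 (Apoc1, Apoe and Mttp) through 2 (Apob) and 4 (Apoa2 and Apoa5) to 5 (Apoa1, Apoa4, Apoc3 and Lipc), with a median of 4, beside a median of 0 over all genes. Only 1.39% of genes had more NCoR peaks than Lipc, Apoa4 and Apoc3, and 1.16% had more shared sites. For Mttp, by contrast, 31.0% of genes had more NCoR peaks and 20.7% had more shared sites. HDAC3 peaks were most numerous at Lipc (9) and Apoa2 (8), with 0.570% and 0.907% of genes above them. These counts follow region length and neighbours as well as the gene: with 20 kb in place of 50 kb on either side, or with peaks given to the gene of the nearest TSS, the median number of shared sites per member was 1. The medians over all genes under these alternatives are not given here.

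**Figure D4:**
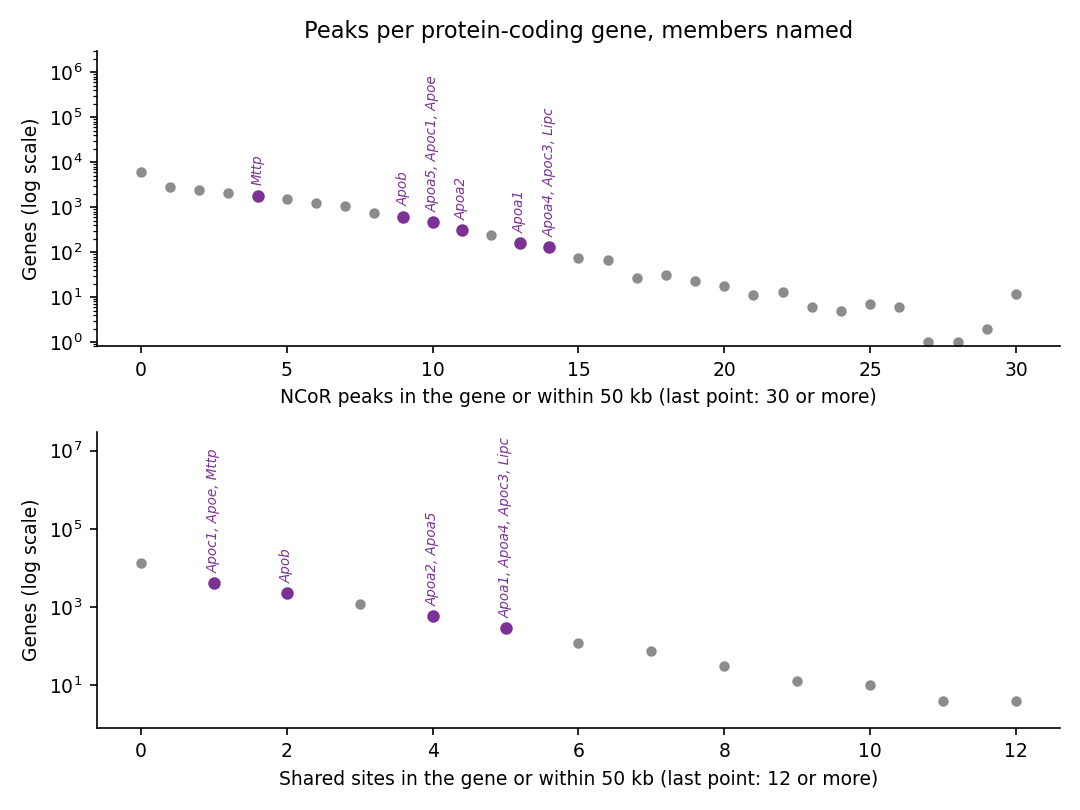
Number of protein-coding genes (log scale) with each count of NCoR peaks (upper panel) and of shared sites (lower panel) in the gene or within 50 kb, with the values of the 10 members marked in purple. Mttp, with 4 NCoR peaks, sits nearest the bulk of genes, while Apoa4, Apoc3 and Lipc share the highest member count of 14.

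By the nearest TSS, 43 of the 63 NCoR peaks belonged to a member, 18 of 22 SMRT peaks and 23 of 29 HDAC3 peaks. Lipc took 14, Apob 9, Apoa1 7 and Apoa5 4 of the NCoR peaks, and the rest went to Mttp (3), Apoa2 (2), Apoe (2), Apoc1 (1) and Apoc3 (1). With start sites of all annotated genes, noncoding ones included, the number assigned to a member was 28. Among the 43, 15 were shared sites (34.9%, 21.0 to 50.9%) and 19 were NCoR-only (44.2%, 29.1 to 60.1%). Among the 20 nearest to another gene 3 were shared (15.0%, 3.21 to 37.9%) and 14 NCoR-only (70.0%, 45.7 to 88.1%), so the intervals of the 2 sets overlapped for both classes. The neighbours with most peaks were Pcp4l1, Nr1i3 and Apoc4, with 3 each. Fcer1g and Apoc2 had 2 each, and Adamts4, an aggrecan-cleaving protease, Zpr1, Bud13, 4931429L15Rik, Trmt10a, Clptm1 and Tomm40 had 1 each. At Zpr1, a zinc finger protein gene next to Apoa5, an NCoR peak 29 bp downstream and a SMRT peak 191 bp upstream of the TSS were 220 bp apart and so just missed the 200 bp rule.

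Of the 63 NCoR peaks 28 were intergenic (44.4%, beside 44.5% of all NCoR peaks), 27 in introns (42.9%, beside 48.5%), 7 in untranslated or noncoding exons (11.1%, 4.59 to 21.6%, beside 5.05%) and 1 in a coding exon (1.59%, beside 1.95%). Each share's interval held the share of the whole list. At the 18 shared sites the NCoR and SMRT centres were a median of 14.5 bp apart and the NCoR and HDAC3 centres 12 bp, beside 23 and 21 bp over all shared sites. The median distance from an NCoR centre to the nearest protein-coding TSS was 5231 bp, beside 18212 bp for all NCoR peaks, which the choice of regions within 50 kb of a gene itself favours. The nearest other NCoR peak was a median of 3748 bp away, beside 6545 bp. In base composition the member windows of 200 bp were close to the rest, with a median of 49.5% G and C, beside 48.0%.

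Of the 10 motif strings searched in the 200 bp around each NCoR centre, on both strands, the more common ones had like shares in the member peaks and in all NCoR peaks. The C/EBP string TTGCNNAA was in 12 of 63 (19.0% beside 19.1%), the FOX string TGTTTAC in 5 (7.94% beside 7.74%), the HNF6 string ATCAATA in 4 (6.35% beside 6.17%) and the BCL6 and STAT string TTCNNNGAA in 6 (9.52% beside 7.10%). C/EBP, FOX and HNF6 proteins are transcription factors of the liver, and TTCNNNGAA is the core read by BCL6 and STAT proteins. The ETS string CCGGAAG was in 4 (6.35%, 1.76 to 15.5%, beside 2.32%), at Mttp near Trmt10a, upstream of Apob, and at the promoters of Tomm40 and Zpr1. DR1, the repeat bound by HNF4 and by PPAR with RXR, was found in 2 (3.17% beside 1.54%), in an intron of Apob and upstream of Apoc4, and the first of these also held the HNF4 half-site CAAAGTCCA (2.09% of all). The ERR string TCAAGGTCA was in 1, 1017 bp upstream of Apoa2 (1.35% of all), and the HNF1 half-site GTTAATNAT in 1, downstream of Apob (1.64% of all). CTCF was in none, beside 0.512% of all. Strings were matched in full, so a DR1 repeat or other site that differed from its string by a letter was not counted. No overlap between strings was removed, and a match is a description of the letters, not a bound site.

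In the printed sequences, Apoa2 held a FOX match 77 to 71 bp upstream of its TSS and Apob a C/EBP match on the opposite strand 61 to 54 bp upstream. Apoe held a FOX match on the opposite strand inside its upstream shared site, and Mttp a BCL6 and STAT match 79 to 71 bp upstream. At Lipc an HNF6 match lay 76 to 82 bp downstream, in the part not printed. The half-site AAAGGTCA, written TGACCTTT on the printed strand, was present at Apoc3 (85 to 78 bp upstream), Mttp (41 to 34 bp upstream) and Lipc (76 to 69 bp upstream), and in 7 of the 63 member peaks (11.1%, 4.59 to 21.6%), beside 5.87% of all NCoR peaks. It was picked from these very sequences, so its count among them carries no weight of its own. Apoa1, Apoa5 and Apoc1 had no match to any of the strings. Only full matches are in capitals, so a stretch close to DR1, also one that takes in a marked half-site, is not marked as DR1.

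A wider list of 29 genes that make, remodel or clear lipoproteins was described by the same rule. All 29 had an NCoR peak in the gene or within 50 kb (beside 72.3% of all protein-coding genes), and 23 had a shared site (79.3%, beside 39.2%). By role, shared sites were near 4 of 6 other apolipoprotein genes, 7 of 8 genes of VLDL assembly and secretion, 5 of 6 of HDL assembly and remodelling, 4 of 6 for lipases and their control and 3 of 3 for remnant uptake. Apoc2 and Apoc4, 2 of these 4 apolipoprotein genes, lie in the Apoc1 and Apoe locus, and their 1 shared site is the one upstream of Apoe already described. Scarb1, the HDL receptor, had the most with 10 shared sites among 15 NCoR peaks, and Abca1, which exports cholesterol to Apoa1, had 7 among 18. Angptl8, a regulator of lipoprotein lipase, Lrp1, a remnant receptor, and Sdc1, a heparan sulfate proteoglycan that binds remnants, had 4 each. Both Scarb1 and Abca1 thus had more shared sites than any member. On promoters, 13 of the 29 had an NCoR peak (beside 16.9% of all genes) and 4 a shared site (beside 2.34%), Angptl8 and Lrp1 among them. With 20 kb on either side, or with peaks given to the nearest TSS, 15 of the 29 had a shared site. The 39.2% of all genes holds for 50 kb only, and the shares of all genes under these alternatives are not given here.

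**Figure D5:**
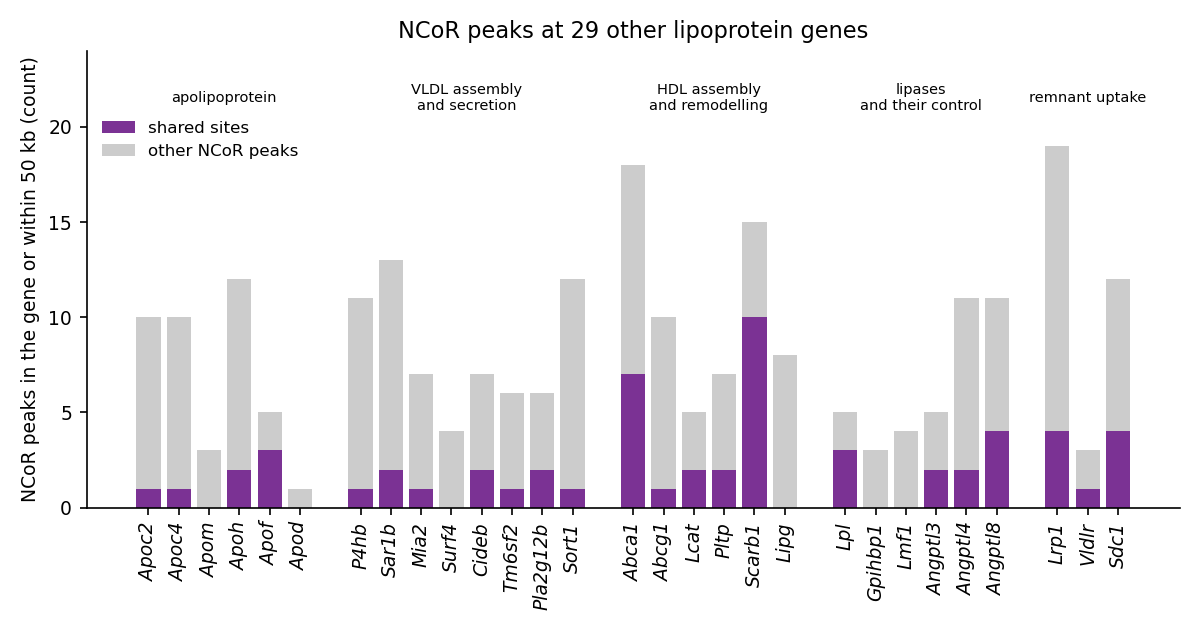
NCoR peaks (count) in the gene or within 50 kb for 29 further lipoprotein genes grouped by role, with shared sites in purple and other NCoR peaks in grey. Scarb1 reaches 10 shared sites and Abca1 7, and 6 genes have none.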

How the data were processed

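The authors aligned single-end reads to mm10 with Bowtie, kept unique alignments with 1 read per start position, and called peaks with HOMER on the 3 pooled libraries of a cofactor against input. The authors then filtered the peaks by fold and false discovery rate with DESeq2 on the separate libraries. The deposited lists give chromosome, start and end, with every interval 228 bp (NCoR) or 212 bp (SMRT and HDAC3) long, end minus start. Sequencing depth is not given in the sources used here, so a site missing from a list was not detected at an unknown depth, and the shorter SMRT and HDAC3 lists limit pairings.

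Overlap followed the study's rule of centres at most 200 bp apart. TSSs came from all transcripts of protein-coding genes in GENCODE vM21 (basic) and sequence from GRCm38.p6. The lists do not say whether starts count from 0, so coordinates and sequences are as listed with both ends included. Scripts used Python 3.11.15, pandas 2.3.3, scipy 1.17.1 and pysam 0.24.0, and the class, TSS and motif functions were tested on simulated data. Shares have exact 95% intervals. All 10 members are named, other genes where they hold the nearest TSS of a peak, and in the wider list the 5 with the most shared sites. Members and lists were chosen with earlier results of these data known. The alternatives were other region sizes, partner distances, TSS sets, promoter windows and motif windows, and removal of repeats. A stricter peak threshold could not be set without peak scores and was not run.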

Additional observations from a re-analysis of the deposited data

How the results depend on the processing

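No paired analysis was possible because each peak list covers its 3 libraries together and per-library data were not used here, so no library could be left out. Of 48 alternatives to the summary counts 40 stayed within 1.5 times the value reported, or within its interval for a share, and 8 did not. The median number of shared sites per member was 1 with 20 kb around the gene and 1 with peaks given to the nearest TSS, against 4. Genes of the wider list with a shared site numbered 15 under each of the same alternatives, against 23. NCoR-only sites numbered 50 with 100 kb, against 33, and members with an NCoR peak on the promoter 4 with 1 TSS per gene, against 7. Members with a shared site on the promoter numbered 2 with 1 TSS per gene, against 4, an alternative added after seeing the data. Peaks assigned to a member numbered 28 with the TSSs of all annotated genes, against 43. These alternatives count fewer or more bases or start sites, or, for the nearest TSS, give each peak to 1 gene at any distance. All 10 members kept a shared site with 20 or 100 kb and with partners within 100 or 400 bp, and 7 of 10 by nearest TSS. The shares of all genes under these alternatives are not given here. Of 70 alternatives for single members and motifs 56 stayed within these limits and 14 did not. Adding AAAGGTCA, chosen after seeing the data, gave 35 peaks with a match in place of 32. The background is all protein-coding genes, not those expressed in liver.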
